A study of Mus musculus with 48 samples.

Results

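Interferon-stimulated genes are the genes that cells switch on after an interferon has bound its receptor. Type I interferons signal through JAK kinases to a complex of STAT proteins and IRF9, which binds the interferon-stimulated response element (ISRE) in the promoters of its targets, while interferon gamma acts through a STAT dimer on the GAS element. The products sense foreign nucleic acid, block virus replication, trap intracellular microbes, prepare peptides for antigen presentation, or feed back on the pathway itself. In liver they are made by hepatocytes and by resident macrophages, the Kupffer cells, and they are also known to respond to damaged DNA.

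A list of 44 such genes was followed through the livers of 24 mice in 5 groups. For each gene the probe set with the highest mean over the 24 arrays was taken, among the 45141 probe sets of the array and only where the annotation gave it that gene alone. This left 39 genes of 17097 named in the same way, and 37 of the 39 lay above the median of all probe sets. Mx1 and Oasl2 were the dim exceptions, with mean levels of 3.87 and 3.94. Isg15, Oas1a, Bst2, Ifi44 and Tap1 had no probe set named here, and Bst2 and Tap1 were read from a second set of values given per gene. Levels are log2 signals, so that a difference of 1 is a doubling.

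The mice carried either a wild-type genotype (WT) or 1 null and 1 truncated allele of Ercc1 (Ercc1Δ/-), which encodes a subunit of a DNA repair nuclease, and all were F1 C57BL6J/FVB hybrids of 11 weeks on AIN93G food. WT littermates ate ad libitum (WT-Control, n = 5) or under dietary restriction (WT-DR, n = 5). Ercc1Δ/- mice ate ad libitum (Control, n = 5), ate ad libitum with 14 ppm rapamycin, an mTOR inhibitor, as eRapa microcapsules in the food (Rapa 14 ppm, n = 4), or were restricted (DR 30%, n = 5). Restriction started at 7 weeks and was deepened weekly to 30% from 9 weeks on, the ration being given before dark. The study began rapamycin at either of a pair of ages, and which one applied to the 4 mice measured is not given in the sources used here. The deletion is in every cell of the body and whole liver was sampled, so fewer cells of a type and less RNA per cell cannot be told apart.

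Ercc1 itself ranged from 6.57 to 6.85 in WT-Control and from 4.77 to 5.47 over the 14 Ercc1Δ/- mice, with no overlap, and WT-DR lay at 5.99 to 6.46. Arrays of one group correlated at 0.991 to 0.996 over all probe sets. The 8 hepatocyte markers, among them albumin, had mean levels of 12.14 to 14.32. Rapamycin records differed from the others in how the labels describe their analysis, and that difference cannot be told apart from the treatment.

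The promoters give a view of these genes that the arrays did not use. RefSeq promoters of the GRCm38.p6 build, from 250 bases before to 50 bases after the start of a transcript, were at hand for 27 of the 39 genes. The ISRE core GAAANNGAAA, searched on both strands, occurred in 14 of the 27 (51.85%), a gene counting where any of its promoters matched. Of the 13605 genes with both a promoter and a named probe set 3.59% held it, and of all 27025 genes with a promoter 3.99%. The GAS core TTCNNNGAA, which reads the same on both strands, occurred in 7 of the 27 (25.93%). The shares were 8.76% of the 13605 genes and 9.55% of all genes with a promoter. Igtp, Irgm2 and Eif2ak2 held both. In 11 of the 14 genes an ISRE match lay before the start, and in Ddx58, Ifih1 and Eif2ak2 matches lay only after it. Matches are descriptions of letters and were not tested as binding sites.

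The next windows show the ISRE cores, in capitals, of genes that mark the patterns below: Gbp3, higher in all Ercc1Δ/- groups, Ifit1, Rsad2 and Cxcl10, higher in Control and lower in WT-DR, and Igtp and Irgm2, lower in WT-DR and not called in Control. Each is written 5′ to 3′ on the strand of its gene. Gbp3 covers chr3:142559975-142560034 (plus strand), Ifit1 chr19:34640774-34640833 (plus), Rsad2 chr12:26456543-26456602 (minus), Cxcl10 chr5:92349073-92349132 (minus), Igtp chr11:58199492-58199551 (plus) and Irgm2 chr11:58214883-58214942 (plus).
Gbp3: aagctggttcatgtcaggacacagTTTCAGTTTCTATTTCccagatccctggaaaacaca
Ifit1: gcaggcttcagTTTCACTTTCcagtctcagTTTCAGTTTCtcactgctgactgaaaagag
Rsad2: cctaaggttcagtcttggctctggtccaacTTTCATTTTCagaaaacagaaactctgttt
Cxcl10: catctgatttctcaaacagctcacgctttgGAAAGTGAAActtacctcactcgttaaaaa
Igtp: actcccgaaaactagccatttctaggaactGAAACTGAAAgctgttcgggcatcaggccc
Irgm2: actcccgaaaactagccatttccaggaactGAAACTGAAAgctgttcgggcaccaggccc

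Gbp3 and Ifit1 each had 2 matches in the window, overlapping in Gbp3 and apart in Ifit1. The core began 120 bases before the start in Rsad2, 213 bases before it in Cxcl10, 34 bases before it in Igtp and 64 bases before it in Irgm2. The neighbouring GTPase genes Igtp and Irgm2 were identical at 58 of the 60 positions of these windows, and each had a GAS core just ahead of the ISRE, beginning at -45 and -75 relative to the start. Irf7, Xaf1, Samd9l, Oasl1 and Psmb9 had no ISRE match in these letters. Usp18, Zbp1 and Ifi27l2a were among the 12 genes with no promoter at hand.

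The first question was what loss of Ercc1 did to these genes in mice that ate freely. Against WT-Control, Control showed 16 of the 39 genes higher, by at least 1.5-fold at an adjusted p (limma, Benjamini-Hochberg over all probe sets) under 0.05, and none was lower. Over all genes 2.49% were higher and 1.11% lower by the same rule. The median difference of the 39 was 0.51, against -0.01 over all genes, and 38 of 39 lay above 0, with Oas2 the exception at -0.17. At an unadjusted p under 0.05, 31 were higher and 0 lower. The share of all genes at an unadjusted p was not counted, here or in the comparisons below. At an adjusted p under 0.05 with no demand on the fold, 22 were higher, and 10.1% of all genes passed in either direction. Every Control mouse lay above every WT-Control mouse for 18 of the genes. How many of all genes separated in this way was not counted, so the 18 have no share to stand beside.

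**Figure D1:**
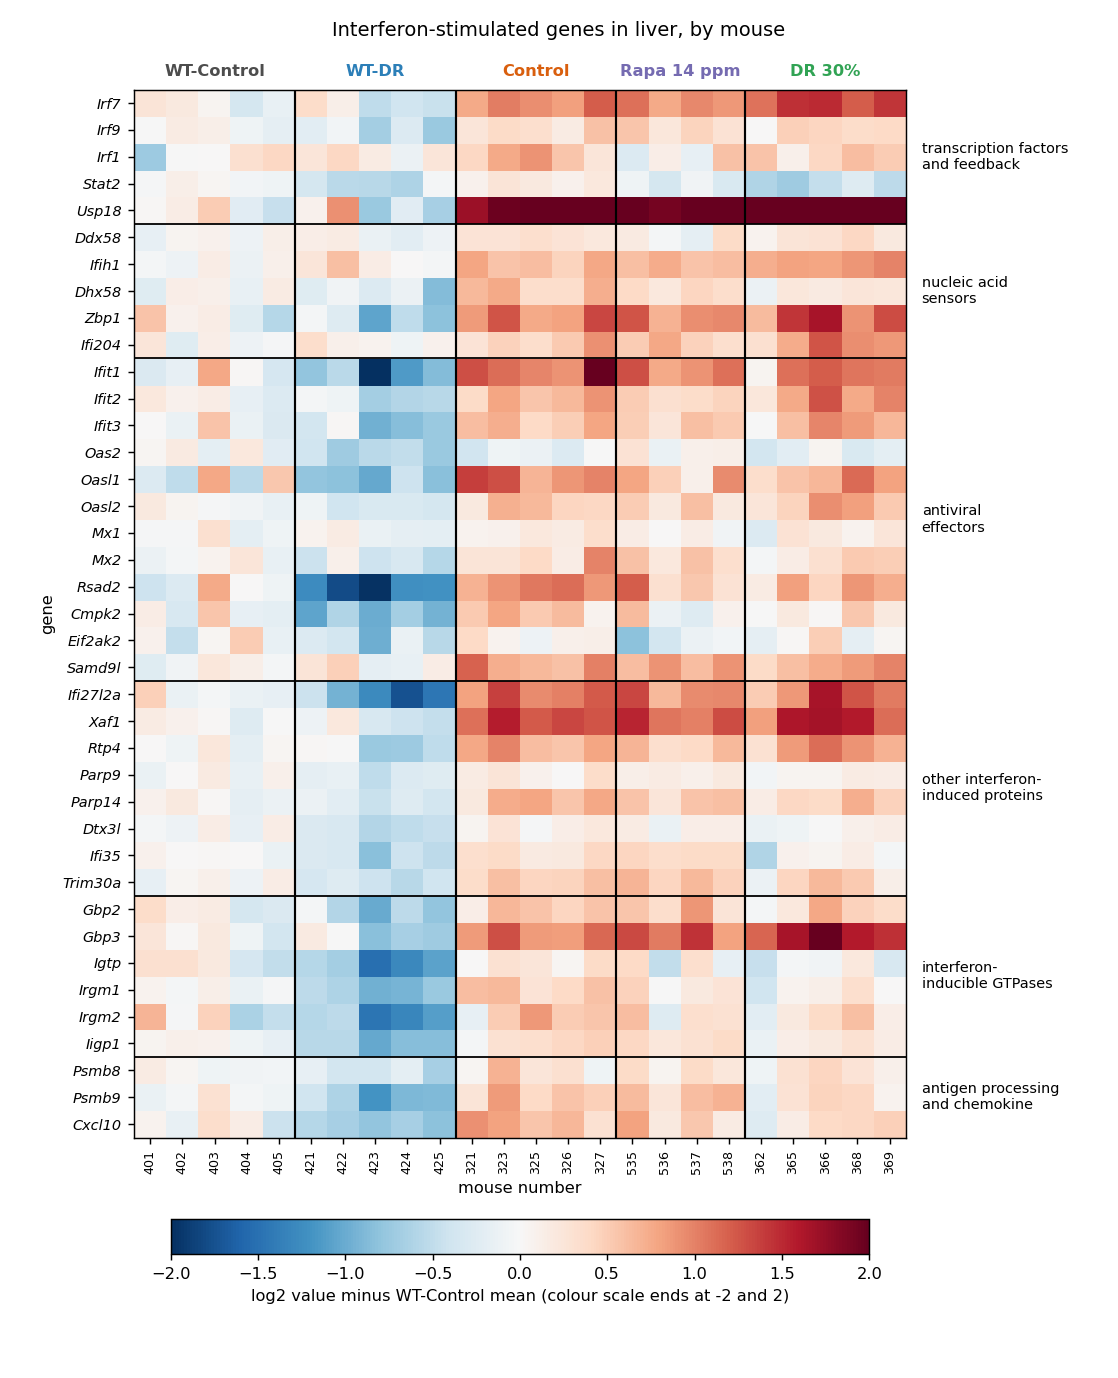
Each row is 1 of 39 interferon-stimulated genes, grouped by role, and each column a mouse, grouped by genotype and diet; colour gives the log2 value minus the WT-Control mean. The 14 Ercc1Δ/- mice to the right are mostly red, with Usp18 the deepest row, the 5 WT-DR mice are mostly blue, and mouse 362 of DR 30% is paler than its group.

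Among the regulators, Usp18, a protease that removes ISG15 from proteins and damps signalling at the type I receptor, differed most. Its values were 5.77, 6.01, 6.25, 6.38 and 6.75 in WT-Control and 7.95, 8.19, 8.25, 8.58 and 9.02 in Control. The 2 groups stood apart by more than a unit, a difference of 2.17 ± 0.27 (SE), or 4.49-fold (adjusted p = 1.27e-05). Irf7, the transcription factor that amplifies interferon production, read 5.80, 5.999, 6.20, 6.35 and 6.40 in WT-Control and 6.91, 6.97, 7.09, 7.17 and 7.37 in Control, again without overlap (0.95 ± 0.15, adjusted p = 0.00017). The other regulators did not pass. Irf9, the DNA-binding part of the ISRE complex, read 7.31, 7.40, 7.48, 7.60 and 7.66 in WT-Control and 7.65, 7.74, 7.83, 7.87 and 8.07 in Control, touching at 1 mouse (0.34 ± 0.12, adjusted p = 0.089). Stat2, its partner, read 6.89, 6.92, 6.96, 7.02 and 7.10 in WT-Control and differed by 0.17 ± 0.10 (adjusted p = 0.34), and Irf1 by 0.57 ± 0.18 (adjusted p = 0.057).

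Of the 5 nucleic acid sensors 2 were higher. Zbp1, which recognises left-handed nucleic acid and can trigger necroptosis, read 4.55, 4.87, 5.20, 5.27 and 5.68 in WT-Control and 5.86, 5.92, 5.96, 6.36 and 6.45 in Control (0.998 ± 0.212, adjusted p = 0.004). Ifih1, which encodes the RNA sensor MDA5, read 7.60, 7.62, 7.69, 7.82 and 7.87 in WT-Control and 8.17, 8.30, 8.33, 8.50 and 8.51 in Control (0.64 ± 0.10, adjusted p = 0.00011). Both genes thus separated the genotypes mouse by mouse. Dhx58 (0.57), Ifi204 (0.50) and Ddx58, encoding RIG-I (0.28), also had every Control mouse above WT-Control but stayed under 1.5-fold.

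Antiviral effectors formed the largest group, and 6 of its 12 measured genes were higher. Samd9l, a restriction factor, read 6.72, 6.90, 6.93, 7.09 and 7.19 in WT-Control and 7.55, 7.61, 7.70, 7.98 and 8.14 in Control, apart in every mouse (0.83 ± 0.14, adjusted p = 0.0003). Oasl1, an oligoadenylate synthetase-like protein, went from 5.35, 5.39, 5.63, 6.44 and 6.66 to 6.57, 6.79, 6.89, 7.18 and 7.28 (1.05 ± 0.22, adjusted p = 0.0042). Rsad2, which encodes viperin, went from 6.68, 6.82, 7.01, 7.09 and 7.85 to 7.79, 7.96, 7.98, 8.14 and 8.21 (0.93 ± 0.21, adjusted p = 0.0059). In Oasl1 and Rsad2 the top of WT-Control reached into the Control range. The RNA-binding Ifit1, Ifit2 and Ifit3 gave 1.27, 0.66 and 0.60. Mouse 403 of WT-Control was its group's highest for Rsad2 (7.85) and Ifit1 (7.00), and without it 19 of the 39 genes were higher in Control. The other effectors did not pass and lay between -0.17 (Oas2) and 0.51 (Cmpk2).

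Xaf1, a pro-apoptotic binding partner of XIAP, was the second most changed gene by size in the probe sets used. It read 6.15, 6.40, 6.44, 6.50 and 6.58 in WT-Control and 7.51, 7.65, 7.68, 7.75 and 7.98 in Control (1.30 ± 0.15, 2.46-fold, adjusted p = 5.73e-06). The size depended on the processing: over 31 alternative settings, described below, the lowest difference of Xaf1 was 0.60, still called. Ifi27l2a, a small membrane protein of the interferon alpha-inducible protein 27 family, went from 6.52, 6.56, 6.56, 6.64 and 7.16 to 7.50, 7.64, 7.69, 7.91 and 8.06 (1.07 ± 0.21, adjusted p = 0.0019). Both differences were several times the spread within either group. Parp14, an ADP-ribosyltransferase, read 7.39, 7.45, 7.60, 7.66 and 7.78 in WT-Control and 7.77, 8.14, 8.31, 8.34 and 8.37 in Control. Its difference of 0.61 ± 0.11 (adjusted p = 0.0012) was just past 1.5-fold and fell under that fold without any 1 of mice 404, 405, 323, 325 and 327 (lowest difference 0.56), and the mean of all its probe sets gave 0.45. Rtp4 was higher by 0.75.

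Of the 6 interferon-inducible GTPases, which attack the vacuoles of intracellular microbes, Gbp3 passed. All 6 lay above 0, with a median of 0.46 and 4 higher at an unadjusted p under 0.05. Gbp3 read 6.17, 6.45, 6.56, 6.73 and 6.77 in WT-Control and 7.36, 7.38, 7.38, 7.68 and 7.82 in Control (0.99 ± 0.19, adjusted p = 0.0016). Igtp (0.19), Iigp1 (0.30), Irgm2 (0.45), Gbp2 (0.48) and Irgm1 (0.50) did not reach 1.5-fold. Of the last group Cxcl10, a chemokine that attracts T cells, was higher, at 5.57, 5.82, 5.92, 6.06 and 6.18 in Control against 4.84, 5.11, 5.33, 5.40 and 5.62 in WT-Control (0.65 ± 0.15, adjusted p = 0.0088), while the immunoproteasome subunits Psmb9 and Psmb8 gave 0.51 and 0.24. The difference of Cxcl10 was under 1.5-fold without mouse 405 (0.54) or mouse 321 (0.58).

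**Figure D2:**
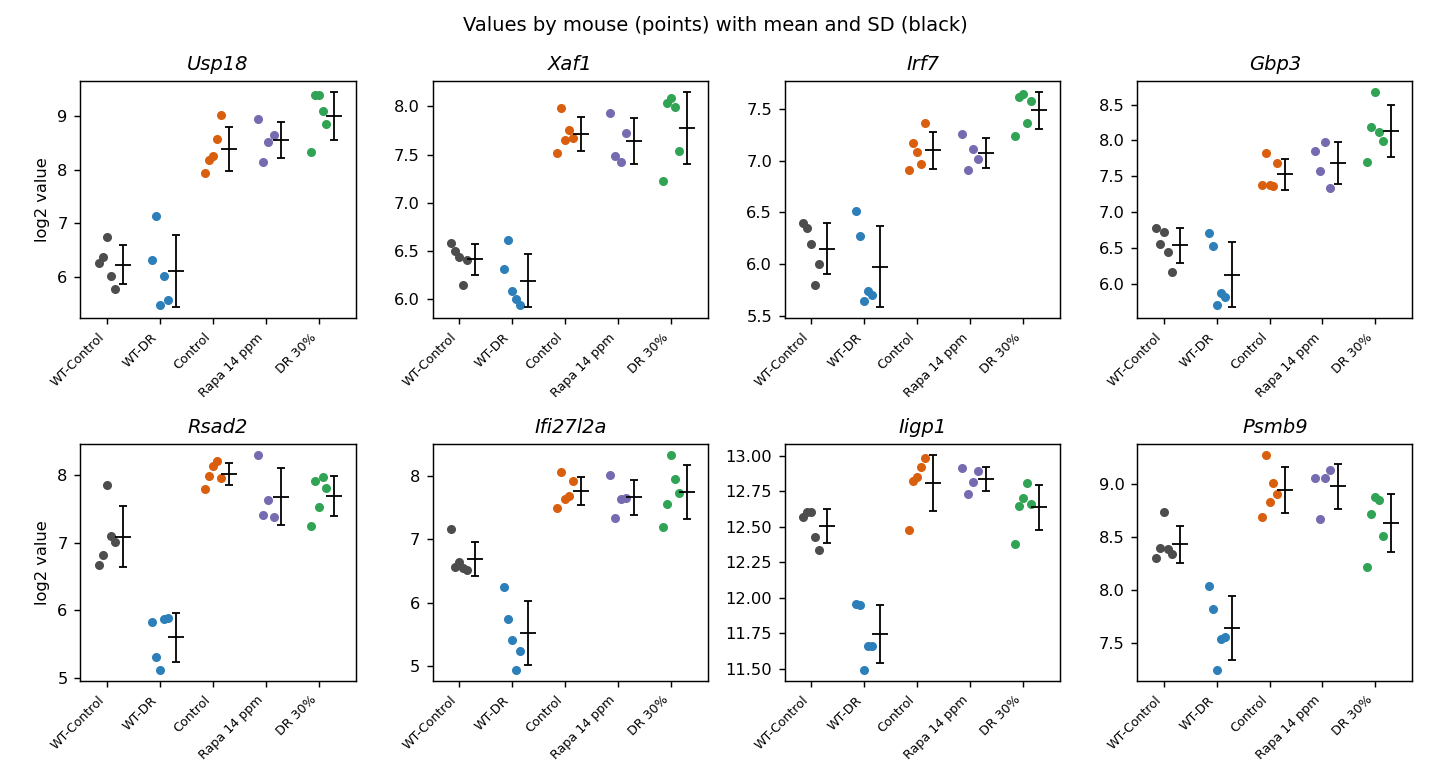
Log2 values (y axis) of 8 genes in the 5 groups (x axis), 1 point per mouse, with the group mean and SD in black. In the upper row the WT groups overlap and all Ercc1Δ/- groups lie above them; in the lower row WT-DR forms the lowest group by itself.

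The second question was whether rapamycin or restriction moved these genes in Ercc1Δ/- mice. With rapamycin no change was detected: 0 of 39 genes passed in either direction between Rapa 14 ppm and Control, where 0.0468% and 0.00585% of all genes were higher and lower, and at an unadjusted p under 0.05 the counts were 1 and 5. The median difference was -0.10. For Usp18, read as 8.14, 8.52, 8.66 and 8.95 in Rapa 14 ppm, the difference from Control was 0.17 with a 95% interval of -0.43 to 0.76. Its upper bound lies past the 1.5-fold threshold (0.58 on this scale), so the interval includes a rise of that size in Usp18. For Irf7 the interval was narrower, from -0.35 to 0.30.

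Against WT-Control, 9 of 39 genes were higher with rapamycin and none lower, where 3.01% and 1.61% of all genes passed. All 9 (Usp18, Irf7, Ifih1, Zbp1, Ifit1, Samd9l, Ifi27l2a, Xaf1 and Gbp3) were also higher in Control and in DR 30% against the same WT-Control mice. Usp18 differed by 2.33 ± 0.29, Xaf1 by 1.23 ± 0.16 and Gbp3 by 1.15 ± 0.20, although the value per gene of Xaf1 gave 0.56, under 1.5-fold. At an unadjusted p under 0.05, 26 genes were higher and 0 lower, and 13 of 39 passed without WT-Control mouse 403. With no demand on the fold, 16 were higher at an adjusted p under 0.05, against 12.9% of all genes in either direction. The median difference was 0.42.

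Restriction of the Ercc1Δ/- mice gave few calls. In DR 30% against Control 1 of 39 genes was higher (Gbp3) and 1 lower (Stat2), near the 1.85% and 1.22% of all genes, with 4 and 6 at an unadjusted p under 0.05. The median difference of the 39 genes was -0.11. Stat2 read 7.06, 7.07, 7.18, 7.19 and 7.24 in Control and 6.28, 6.39, 6.45, 6.50 and 6.72 in DR 30%, so that every restricted mouse lay below every control mouse (-0.68 ± 0.10, adjusted p = 8.55e-05). The dimmer second probe set of Stat2 gave -0.34 (adjusted p = 0.13), and the value per gene (-0.55) and the mean of both probe sets (-0.51) were under 1.5-fold. Stat2 was also lower in WT-DR than in WT-Control, by a difference (-0.42, adjusted p = 0.0029) under 1.5-fold. The interaction of both differences was -0.26 with a 95% interval of -0.54 to 0.02 (adjusted p = 0.4). For Stat2 every Rapa 14 ppm mouse (6.62 to 6.92) also lay below every Control mouse, without a call (-0.37, adjusted p = 0.19). Rapa 14 ppm and DR 30% did not differ by a call in Stat2 either (0.31, adjusted p = 0.076).

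Gbp3 was 7.69, 8.00, 8.12, 8.19 and 8.68 in DR 30%, overlapping Control (0.61 ± 0.19, adjusted p = 0.047). The call was lost in 12 of the 24 fits that left out a mouse, as far as an adjusted p of 0.14 without mouse 366, the highest value. Usp18 (8.33, 8.85, 9.10, 9.39 and 9.40 in DR 30%) gave the same difference of 0.61 with more spread (adjusted p = 0.18). The autophagy-linked GTPase Irgm1 was lower in DR 30% (-0.48, adjusted p = 0.0094), under 1.5-fold.

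DR 30% therefore still stood above WT-Control: 16 of 39 genes were higher and none lower, where 4.85% and 2.32% of all genes passed. The median difference was 0.34, and at an unadjusted p under 0.05, 21 genes were higher and 1, Stat2, lower. With no demand on the fold, 18 were higher and 1 lower at an adjusted p under 0.05, against 24.5% of all genes in either direction. Usp18 was 2.78 ± 0.27 above WT-Control (adjusted p = 1.15e-07) and Irf7 1.34 ± 0.15. Rsad2 (0.60, adjusted p = 0.041) and Oasl1 (0.70, adjusted p = 0.029) passed narrowly and lost their calls in 11 and 7 of 31 alternative settings, and the count was 11 without mouse 368. Direct comparison of both interventions, Rapa 14 ppm against DR 30%, gave 0 of 39 genes in either direction against 0.842% and 1.27% of all genes, with 4 and 3 at an unadjusted p under 0.05 and a median difference of 0.02.

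The third question was what restriction did in WT livers, and here every call was lower. In WT-DR 12 of 39 genes passed on the low side and none on the high side, where 3.52% and 2.85% of all genes passed. At an adjusted p under 0.05 with no demand on the fold, 21 were lower, and 22.3% of all genes passed in either direction. At an unadjusted p under 0.05, 30 were lower and 0 higher. The median difference was -0.41 and 35 of 39 lay below 0. Without WT-DR mouse 421, 15 genes were lower.

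Of the 12, 5 were GTPases, and Gbp3 was the 1 member of that role that did not pass. Iigp1, the brightest gene of the list, read 12.34, 12.42, 12.57, 12.60 and 12.60 in WT-Control and 11.49, 11.66, 11.66, 11.95 and 11.96 in WT-DR (-0.76 ± 0.10, 1.70-fold lower, adjusted p = 8.7e-06). Its second probe set gave -0.87 and was also called. Irgm1 went from 8.75, 8.84, 8.86, 8.94 and 9.00 to 7.92, 7.94, 8.13, 8.26 and 8.36 (-0.76 ± 0.12, adjusted p = 5.4e-05). Neither gene had a WT-DR mouse within the WT-Control range. The paired neighbours Igtp and Irgm2 were lower by similar amounts, -1.02 ± 0.20 (adjusted p = 0.00065) and -0.99 ± 0.24 (adjusted p = 0.0053), and Gbp2 by -0.59.

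Rsad2 showed the largest difference of the list under restriction. It read 6.68, 6.82, 7.01, 7.09 and 7.85 in WT-Control and 5.11, 5.31, 5.83, 5.87 and 5.89 in WT-DR (-1.49 ± 0.21, 2.81-fold lower, adjusted p = 1.77e-05), and both of its dimmer probe sets were called in the same direction (-0.90 and -1.16). Ifi27l2a came next, at 4.94, 5.24, 5.41, 5.74 and 6.25 in WT-DR (-1.17 ± 0.21, adjusted p = 0.00032), followed by Ifit1 (-1.12). All WT-DR mice lay below all WT-Control mice for these 3 genes. Psmb9, the immunoproteasome subunit, read 8.30, 8.35, 8.39, 8.40 and 8.74 in WT-Control and 7.25, 7.54, 7.56, 7.83 and 8.04 in WT-DR (-0.79 ± 0.14, adjusted p = 0.00036). The second brightest probe set of Psmb9 was also called (-0.63), the dimmest (level 3.43) gave -0.05, and the mean of all of them (-0.49) was under 1.5-fold. Cmpk2, a nucleotide kinase encoded next to Rsad2 (-0.85), Oasl1 (-0.78) and Cxcl10 (-0.71) completed the 12, and Oasl1 was lost without mouse 403 or mouse 405 (adjusted p = 0.058 and 0.052).

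Usp18 and Xaf1, with the 2 largest differences between Control and WT-Control in the probe sets used, were not among them, whereas Ifit1, Ifi27l2a and Oasl1, which came next by size, were. Usp18 read 5.48, 5.56, 6.01, 6.32 and 7.14 in WT-DR, across the whole WT-Control range (-0.13, 95% interval -0.69 to 0.43). Irf7 (-0.17), Xaf1 (-0.22), Samd9l (0.11) and Ifih1 (0.19) likewise overlapped WT-Control and did not pass. Of the 16 genes higher in Control, 5 (Ifit1, Oasl1, Rsad2, Ifi27l2a and Cxcl10) were lower in WT-DR and 11 were not called there, and 7 genes (Cmpk2, Psmb9, Gbp2, Igtp, Irgm1, Irgm2 and Iigp1) were lower in WT-DR without being called in Control. Among the 7, Irgm1 (0.50, adjusted p = 0.0073) and Psmb9 (0.51, adjusted p = 0.030) missed the call in Control only by the fold. WT-Control mice entered both comparisons.

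With restriction in both genotypes the contrast between them was at its widest. DR 30% was higher than WT-DR for 28 of 39 genes and lower for none, where 4.22% and 1.22% of all genes passed. At an unadjusted p under 0.05 the counts were 36 and 0. With no demand on the fold, 34 were higher at an adjusted p under 0.05, against 16.1% of all genes in either direction. The median difference was 0.88, against 0.51 between the unrestricted groups. The 28 included all 16 genes higher in Control than in WT-Control, which are 57.1% of the 28. These comparisons share no mouse but use the same estimate of the spread. All 6 GTPases were among them. Usp18 differed by 2.91 ± 0.27 (7.51-fold, adjusted p = 1.57e-07), Ifi27l2a by 2.23 ± 0.21 and Rsad2 by 2.09 ± 0.21. Stat2 was the 1 gene below 0 (-0.09).

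The values behind these differences left no overlap in the leading genes. Ifi27l2a read 7.20, 7.55, 7.72, 7.94 and 8.34 in DR 30%, all above the 6.25 of the highest WT-DR mouse. Gbp3 read 5.70, 5.82, 5.87, 6.53 and 6.71 in WT-DR, and the lowest DR 30% mouse lay at 7.69 (2.01 ± 0.19, adjusted p = 1.95e-07). Both groups were thus fully apart for these genes. Xaf1 read 5.945, 6.005, 6.09, 6.32 and 6.62 in WT-DR and 7.23, 7.54, 8.00, 8.03 and 8.08 in DR 30% (1.58 ± 0.15, adjusted p = 2.29e-07). Its lowest difference over the alternative settings was 0.65, still called. Irf7 read 5.64, 5.70, 5.75, 6.27 and 6.52 in WT-DR and 7.24, 7.36, 7.58, 7.61 and 7.65 in DR 30% (1.51 ± 0.15, adjusted p = 3e-07). Every restricted Ercc1Δ/- mouse lay above every restricted WT mouse for both.

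**Figure D3:**
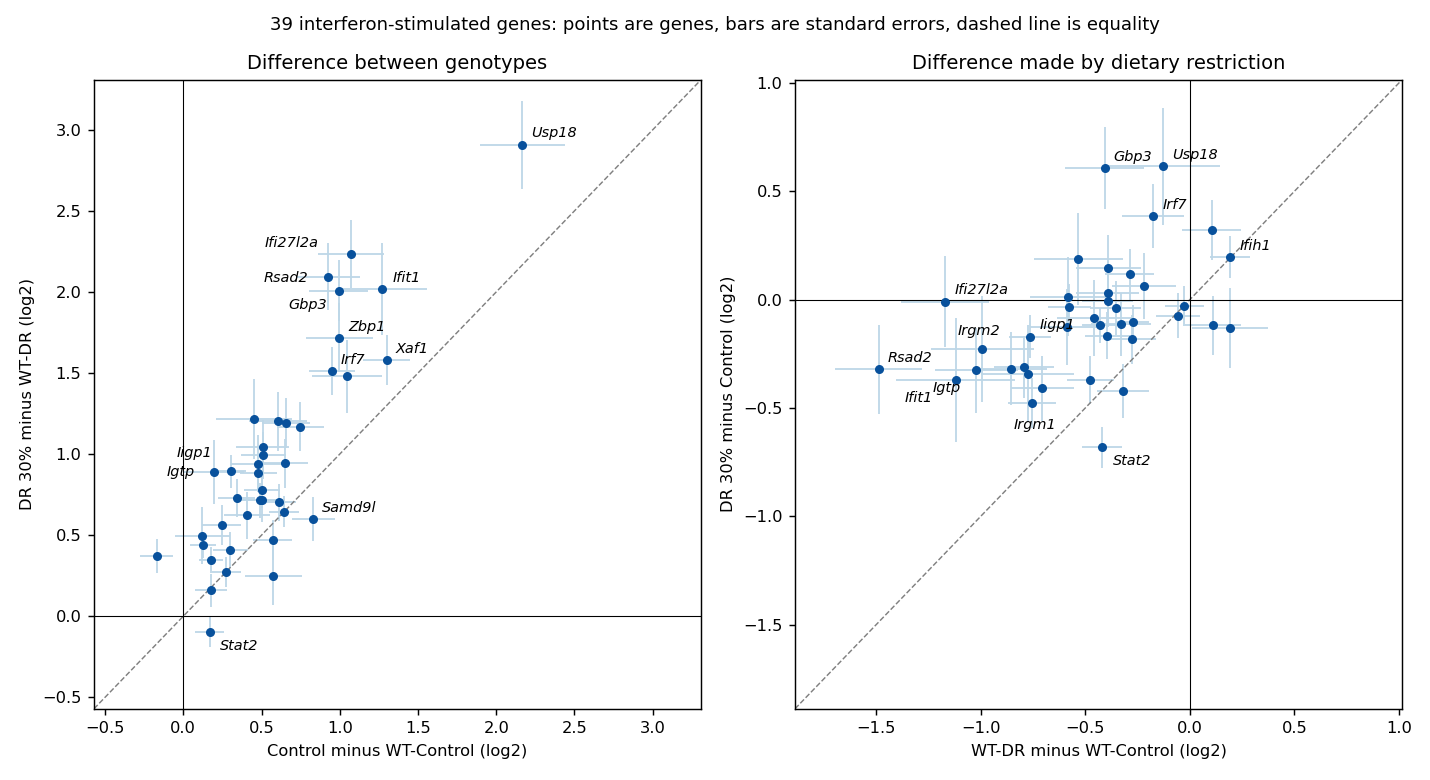
Each point is 1 of 39 genes with standard errors, on log2 axes. Left, the genotype difference without (x) and with restriction (y), where 33 of 39 genes lie above the dashed line of equality; right, the effect of restriction in WT (x) and Ercc1Δ/- mice (y), where Rsad2 lies at -1.49 and -0.32 and Ifi27l2a at -1.17 and -0.01.

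Whether restriction acted differently in both genotypes was tested as an interaction, the effect in Ercc1Δ/- mice minus that in WT mice. Its median over the 39 genes was 0.39, and 33 of 39 lay above 0, against 54.4% of all genes. Only Iigp1 passed (0.59 ± 0.14, adjusted p = 0.041), where 0.737% of all genes were higher and 0.228% lower, and 16 genes were above 0 at an unadjusted p under 0.05 and 0 below. Restricted Ercc1Δ/- mice read 12.38, 12.65, 12.66, 12.70 and 12.81 for Iigp1, within the span of WT-Control and Control together (12.34 to 12.99). The call was lost in 15 of the 24 fits that left out a mouse (adjusted p up to 0.088), although the second probe set of Iigp1 also passed (0.67). Rsad2 (1.17, 95% interval 0.56 to 1.77, adjusted p = 0.051), Ifi27l2a (1.16, adjusted p = 0.058) and Gbp3 (1.02, adjusted p = 0.068) missed the threshold by little, and without mouse 362 or mouse 421 the counts were 4 and 6. For Ifih1 the interaction was 0.00 with an interval of -0.28 to 0.28.

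In none of the comparisons of Control, Rapa 14 ppm, DR 30% and WT-DR with WT-Control, nor of DR 30% with WT-DR, was there a call for 11 genes: Ddx58, Dhx58, Dtx3l, Eif2ak2, Ifi35, Irf1, Mx1, Oas2, Parp9, Psmb8 and Stat2. Mx1 encodes a GTPase that is non-functional in most laboratory strains. Some of the 11 had small differences under 1.5-fold, as the neighbours Parp9 and Dtx3l, which encode partner proteins, at -0.27 and -0.43 in WT-DR (adjusted p = 0.016 and 0.00056). Bst2 (tetherin) and Tap1 (the peptide transporter) were read from the values per gene. Bst2 lay at 9.69 to 10.16 in WT-Control, 8.92 to 9.29 in WT-DR and 9.75 to 10.48 in Control, a difference of -0.85 ± 0.15 in WT-DR (adjusted p = 0.00022) and 0.24 in Control (adjusted p = 0.34). In these values Bst2 passed both thresholds in WT-DR and between DR 30% and WT-DR (0.99, adjusted p = 6.5e-05). It did not pass in Rapa 14 ppm or DR 30% against WT-Control (-0.19 and 0.14), nor in Rapa 14 ppm against Control (-0.42, adjusted p = 0.30). Tap1 differed by -0.36 in WT-DR (adjusted p = 0.0055) and by 0.17 in Control.

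Mouse by mouse, the median difference of the 39 genes from the WT-Control mean ran from 0.39 to 0.71 in Control, from 0.23 to 0.56 in Rapa 14 ppm and from -0.68 to -0.24 in WT-DR, against -0.13 to 0.15 in WT-Control. Neither Control nor Rapa 14 ppm nor WT-DR overlapped WT-Control. DR 30% spanned -0.01 to 0.54, and its low end was mouse 362, in which 19 of 39 genes were above the WT-Control mean, against 36 in the highest of its group. Leaving out mouse 362 left the count of DR 30% against WT-Control at 16. It moved the count against WT-DR from 28 to 29 and that of the interaction from 1 to 4. For the GTPases alone WT-DR ran from -1.01 to -0.54 and Control from 0.07 to 0.58, the latter overlapping WT-Control (-0.33 to 0.28).

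**Figure D4:**
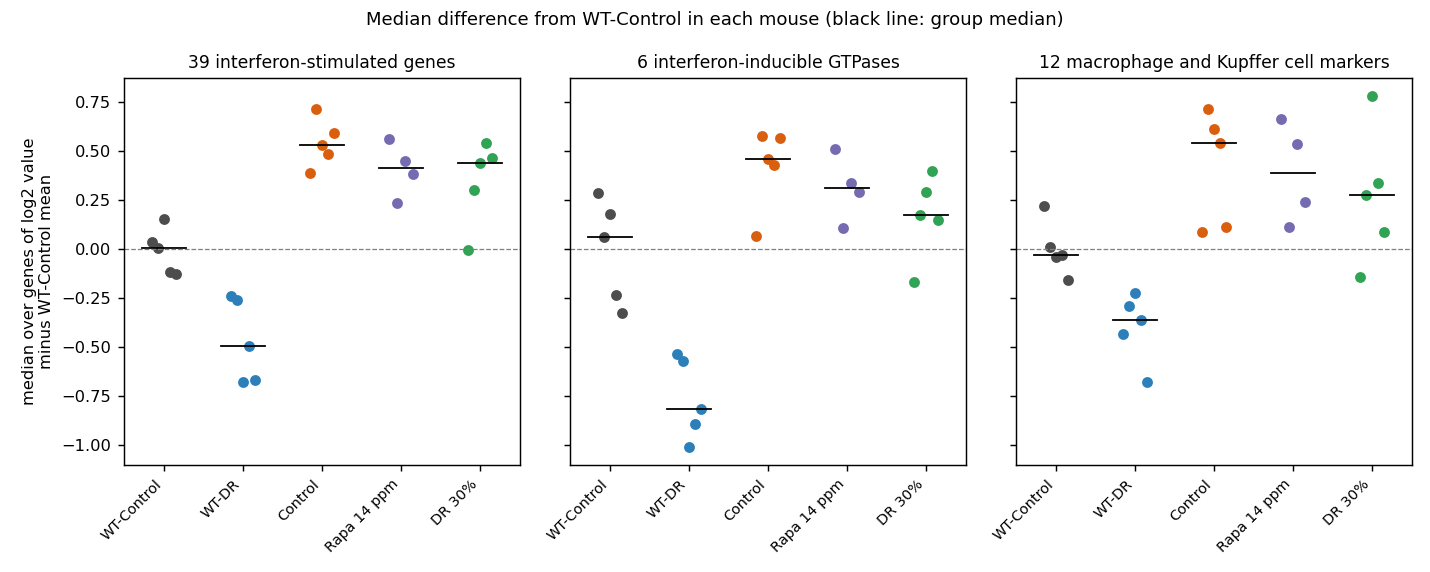
Points are mice and black lines group medians; the y axis is the median over a gene list of the log2 value minus the WT-Control mean. The 39 genes separate WT-DR (-0.68 to -0.24) from Control (0.39 to 0.71), and the 12 macrophage and Kupffer cell markers on the right run from -0.68 to -0.23 in WT-DR and from 0.08 to 0.71 in Control.

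Levels of macrophage genes are given beside these differences. Of 12 macrophage and Kupffer cell markers all lay above the median of probe sets, and their mean level ranged from 7.91 to 8.33 in WT-Control, 7.44 to 7.98 in WT-DR, 8.16 to 8.80 in Control, 8.20 to 8.76 in Rapa 14 ppm and 8.20 to 8.98 in DR 30%. Against WT-Control, 2 of 12 were higher in Control (Vsig4 and Lyz2, 0.59 each, list median 0.44), 2 of 12 were lower in WT-DR (Adgre1 -0.93 and Clec4f -0.71, list median -0.42), and Marco was the 1 higher in Rapa 14 ppm (1.17) and in DR 30% (2.01). In Control, Marco had the largest difference of the list (0.90), without a call. Marco was also the 1 marker above 0 in WT-DR (0.87, adjusted p = 0.072), and 9 of 12 were higher in DR 30% than in WT-DR. Marco was higher in DR 30% than in Control (1.11). Of 5 measured neutrophil markers 2, S100a8 and S100a9, were called higher than WT-Control in every Ercc1Δ/- group. Their differences were 1.48 and 1.47 for Control, 1.48 and 1.54 for DR 30%, and 0.80 and 0.79 for Rapa 14 ppm. The list medians were 0.20, 0.09 and 0.21 in the same order. At an unadjusted p under 0.05, 2 of the 5 were lower for DR 30%, 1 for Rapa 14 ppm and 0 for Control. S100a9 was lower with rapamycin than in DR 30% (-0.74, adjusted p = 0.023). Mpo and Ngp lay at or below the median of probe sets, and Csf3r above it (4.87). Plasmacytoid and conventional dendritic cell markers were dim (4 of 5 at or below the median), as were 6 of 9 T and NK lymphocyte markers and 2 of 4 B cell markers, and none of these was called in the comparisons of Control, WT-DR, Rapa 14 ppm or DR 30% with WT-Control. Of the T and NK lymphocyte markers 1 of 9 was lower in Control, 3 of 9 in WT-DR, 4 of 9 in Rapa 14 ppm and 3 of 9 in DR 30% at an unadjusted p under 0.05. Of 8 hepatocyte markers 1 was called lower than WT-Control in Control and 1 in Rapa 14 ppm. Of 7 stellate cell markers 1 was called higher in each of Control, Rapa 14 ppm and DR 30%. Of 6 sinusoidal endothelial cell markers 1 was called lower in WT-DR, 1 lower in Rapa 14 ppm and 1 higher in DR 30%. The part of macrophages or of other cell types in the results on interferon-stimulated genes was not tested.

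Upstream of these genes the interferons themselves were not detected as moving. All 9 measured ligands, 7 of the alpha family, Ifnb1 and Ifng, had mean levels of 2.96 to 3.97, at or below the probe set median of 4.19. None passed in any of the 9 comparisons, 2 being lower in WT-DR at an unadjusted p under 0.05 and 0 in the other 8. Such dim probe sets limit what could be seen. Of 14 receptor and JAK-STAT genes 0 were called in Control (7 higher at an unadjusted p under 0.05) and 1 in DR 30%, Il10rb, a subunit of the interferon lambda receptor (0.66).

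In the sensing pathway, 2 of 19 genes were higher in Control: Ikbke, a kinase that phosphorylates IRF3 and IRF7 (0.91 ± 0.10, adjusted p = 3.27e-06), and Tlr3, the endosomal receptor for double-stranded RNA (0.95 ± 0.11, adjusted p = 4.55e-06). Irf5, a transcription factor of myeloid cells, went the other way. It was lower in every other group than in WT-Control, by -0.91 in Control, -1.23 in Rapa 14 ppm, -1.38 in DR 30% and -1.75 ± 0.16 in WT-DR, with no overlap in any. Its interaction was 1.28 ± 0.22 (adjusted p = 0.0065).

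Antigen presentation was read by class. Of 8 class I genes only Nlrc5, their transactivator, was called. It was higher in Control (0.61), in WT-DR (0.96) and in DR 30% (1.04) than in WT-Control. At an unadjusted p under 0.05, 3 of the 8 were higher in Control, 2 in Rapa 14 ppm, 2 in WT-DR and 5 in DR 30%, and 0 lower. The class I list leaves out Psmb8, Psmb9 and Tap1, given above, and Psmb9 was called lower in WT-DR (-0.79). Of the class II genes, 5 of 7 were lower in WT-DR than in WT-Control (H2-Eb1 -1.86, H2-Aa -1.50, H2-Ab1 -1.47, H2-DMa -1.25 and Cd74 -1.13) and the same 5 in DR 30% against WT-Control (-1.18 to -0.73), a comparison in which genotype and restriction both differ. Between DR 30% and Control 0 of 7 passed (median -0.44, lowest adjusted p = 0.083), with 2 lower at an unadjusted p under 0.05. In Control 0 of 7 passed, also at an unadjusted p under 0.05, with all 7 differences below 0.

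A further list of 34 measured interferon-stimulated genes gave 6 higher and 0 lower in Control (median 0.34, 30 of 34 above 0) and 0 higher and 6 lower in WT-DR (median -0.30). Ddx60, an RNA helicase (1.30 ± 0.19, adjusted p = 6.88e-05), and Ifi47, a GTPase (1.23 ± 0.18, adjusted p = 6.46e-05), led the first set, with Oas1g (0.88), Ly6e (0.66), Trim34a (0.65) and Lgals3bp (0.65). Ifi47 was also lower in WT-DR (-0.98) and in DR 30% than in Control (-0.90 ± 0.18, adjusted p = 0.002). Ddx60 was not called under restriction in either genotype (0.18 in WT and 0.25 in Ercc1Δ/- mice). Over all genes 2.49% were higher and 1.11% lower in Control, and 2.85% higher and 3.52% lower in WT-DR. The further list was chosen with earlier results of these data known, so it is not an independent repeat.

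Split by the ISRE match, the 27 genes with a promoter at hand gave 6 of 14 with and 5 of 13 without a match higher in Control, 7 of 14 and 3 of 13 lower in WT-DR, and 11 of 14 and 9 of 13 higher in DR 30% than in WT-DR. The medians were 0.50 and 0.51 in Control and -0.59 and -0.39 in WT-DR. These shares are descriptions of few genes, and the difference between them was not tested.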

How the data were processed

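Liver RNA of 24 mice was measured on HT MG-430 PM arrays of Affymetrix. The authors deposited log2 values made by RMA, which corrects background, quantile-normalizes arrays and summarises probes. The same mice have values per probe set (45141 rows) and per gene (17306 rows), giving 48 records. The RMA version, and which arrays were normalized together, are not given in the sources used here. Array data have no read depth, so the number of arrays limits precision. Probe sets were named by the platform annotation with symbols updated through RefSeq: 28898 had 1 gene, 551 several and 15692 none here. One linear model of the 5 groups was fitted to all probe sets with limma 3.58.1 (R 4.3.3), after a check on simulated data. Calls needed a false discovery rate under 0.05 and 1.5-fold. P-values set a difference between groups against the spread between mice within groups, estimated over all 5 groups and moderated across probe sets by limma. The genes given in full were the regulators Irf7, Irf9, Stat2 and Usp18, in each role up to 3 called genes with the smallest adjusted p in Control, and up to 5 called genes in each of the comparisons that follow. Further ones were named after their values were seen. The gene list, role groups, pathway lists and markers were chosen with earlier results of these data known. Alternatives were the values per gene, fits of the compared groups alone, dim probe sets left out, renewed quantile normalization, robust estimation with a trend in the variance, calls without the fold, the mean of all probe sets, and each mouse left out. Some listed genes are not reported here.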

Additional observations from a re-analysis of the deposited data

Results flagged for a closer look

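In 9 of 195 sets of 1 gene in 1 group (4.62%) a mouse stood far from the rest by Dixon's criterion, where chance flags about 1 in 20. Mouse 362 of DR 30% was the low one in 4 of them: Irf9 (7.50, others 7.86 to 7.96), Dhx58 (6.73, others 7.02 to 7.09), Ifit1 (6.28, others 7.27 to 7.44) and Ifi35 (7.79, others 8.35 to 8.53). Mouse 536 of Rapa 14 ppm was low for Parp14 (7.82, others 8.14 to 8.18) and for its neighbour Dtx3l (8.92, others 9.18 to 9.21). Mouse 425 of WT-DR was low for Dhx58 (5.97, others 6.57 to 6.77). In WT-Control mouse 401 was high for Ifi27l2a (7.16, others 6.52 to 6.64) and mouse 403 for Psmb9 (8.74, others 8.30 to 8.40).

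The interaction of restriction and genotype passed for Iigp1 (0.59 on the log2 scale, adjusted p = 0.041) and for Irf5 (1.28). The call of Iigp1 was lost in 16 of 31 alternative settings (adjusted p up to 0.088), the model of only the compared groups included. In Iigp1 restriction gave -0.76 in WT and -0.17 in Ercc1Δ/- mice, and in Irf5 -1.75 and -0.47.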

How the results depend on the processing

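No named value changed direction among called values in 31 alternative settings of 153 results, and in 69 cases a call was lost and in 31 gained. Without a fold threshold the counts became 16 higher in Rapa 14 ppm against WT-Control, 1 lower in DR 30% against WT-Control, 21 lower in WT-DR, 4 lower in DR 30% against Control and 1 higher in Rapa 14 ppm against DR 30%. Renewed quantile normalization gave 1 lower in DR 30% against WT-Control and 0 higher in DR 30% against Control. The values per gene, and the mean of all probe sets, gave 0 lower in DR 30% against Control. For the interaction, 0 were higher with only the compared groups in the model and 4 with dim probe sets left out. With each mouse left out in turn the ranges were 14 to 19 higher in Control against WT-Control, 8 to 13 in Rapa 14 ppm (13 without mouse 403), 11 to 16 in DR 30% against WT-Control (11 without mouse 368), 11 to 15 lower in WT-DR, 0 to 1 higher in DR 30% against Control, 26 to 29 higher in DR 30% against WT-DR, and 0 to 6 for the interaction (6 without mouse 421). The cause of these changes was not tested. The other counts stayed at the same value or within 1.5 times of it. No paired analysis was possible because mouse numbers are not shared between groups.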
